A study of Mus musculus with 8 samples.

Results

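The genes described here are 9 regulators and products that progesterone is known to control in the stroma of the uterus as it turns into decidua: Gata2, Nr2f2, Hand2, Foxo1, Cebpb, Zbtb16, Bmp2, Wnt4 and Igfbp1. They were found on the array through the accession that each probe carries, with control spots left out, and account for 9 of 20145 gene symbols and for 10 of 55681 probes. Foxo1 has 2 probes and each of the others has 1. RNA was taken from whole ovaries, so the uterus in which these genes are best known was not measured.

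The study measured total RNA from ovaries of mice aged 33 weeks on 8 Agilent arrays with a single Cy3 label. The wildtype group holds 3 ovary samples, labelled Wildtype and healthy. The neoplasia group holds 5 samples of ovarian neoplasia, labelled tumorigenic. Its genotype is spelt Pgrcre/+mPgrLsL/+ in the sample labels and Pgrcre/+PgrBLsL/+ in the description of the design, and the series is titled for the B isoform of the progesterone receptor. In such an animal Cre is made from the progesterone receptor locus and removes a stop cassette (LsL), so the transgene is switched on in cells that have used that locus. Both groups came from cycling animals, with no stage of the cycle given, and no group carries the Cre allele or the transgene alone. No label says that each array is a separate animal, so the p-values cover only how far these samples spread, which may be technical.

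Progesterone acts in the uterus through its receptor, a transcription factor made by the gene Pgr. In the epithelium the receptor, with GATA2, drives Indian hedgehog, which signals to stromal cells through a membrane receptor and GLI proteins and raises the orphan receptor NR2F2. In the stroma the receptor raises HAND2, which holds back fibroblast growth factors, and with FOXO1 and CEBPB it turns on the decidual program that includes BMP2, WNT4, ZBTB16 and IGFBP1. In the ovary the receptor itself is known for its brief appearance in granulosa cells before ovulation.

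Signals are given as log2 of the processed intensity minus the 75th percentile of the same array, so that 0 is the intensity at that percentile, and differences are neoplasia minus wildtype on that scale. The percentile lay between 462 and 515 intensity units on the wildtype arrays and between 309 and 429 on the neoplasia arrays, and 29332 to 34147 probes were well above background. Neoplasia 1 to 4 lay in row 1 of the only slide, and neoplasia 5 lay in row 2 with the wildtype arrays, so that row 1 holds a single group. A fit within row 2 therefore sets neoplasia 5 alone against the wildtype arrays and takes in no spread among neoplasia arrays. Neoplasia 5 was also the neoplasia array nearest to the wildtype mean, with a root mean square difference of 1.40 against 1.62 to 1.85 for the others. The median of all features differed by 0.13, by 0.03 after quantile normalization, by 0.23 after normexp background correction, by -0.47 after spike-in scaling and by -0.35 in the authors' deposited values, and small differences have to be set beside these shifts. The mean log2 intensity of the spike-ins was uneven. It was 9.13 to 9.22 on the wildtype arrays, 8.05 on neoplasia 1 and 9.28 to 9.84 on neoplasia 2 to 5. Calls lost with spike-in scaling have to be read with this in mind. The targeted gene Pgr was read by 2 probes that moved in opposite directions, from a mean of -5.22 to 3.91 for one (limma adjusted p = 0.000133) and from -3.29 to -7.01 for the other (adjusted p = 0.00337), which was not well above background on any neoplasia array.

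Of the 9 genes, Hand2, Zbtb16 and Cebpb were higher and Foxo1 and Nr2f2 were lower in the neoplasia, while Bmp2, Wnt4, Gata2 and Igfbp1 did not pass the test. All 9 passed the filter on dim probes, and the test was limma with Benjamini-Hochberg adjustment at 0.05 over 25169 features. Over all features 16.8% were called higher and 13.5% lower, beside 3 and 2 of the 9 genes. The same shares have to be set beside the counts of marker genes below. Without any of wildtype 1, 2 and 3 or neoplasia 1 only 1 of the 9 genes was lower, since the call of Nr2f2 was then lost. Higher calls made up 55.4% of all calls, and 68.7% with normexp correction, 50.4% with quantile normalization, 15.2% with spike-in scaling and 20.2% in the authors' deposited values. Over all features 30.3% were called in either direction, beside 5 of the 9. The groups did not overlap for these 5 genes, and over all features they did not overlap for 39.0%, 22.9% higher and 16.1% lower. In whole-tissue RNA, fewer cells of a type and less RNA per cell cannot be told apart, and this holds for every gene below.

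The stretch before the transcription start of Hand2 and of Igfbp1 is shown because Hand2 has the widest change and Igfbp1 the most uneven one, and because these were the only windows of the 9 genes that held any of the 7 motifs searched. Both are RefSeq sequence of mouse build GRCm38.p6, 250 bases read 5′ to 3′ on the plus strand, which is the strand of both genes. Capitals mark the E-box CATCTG in both, the GATA motif AGATAA as its reverse complement TTATCT in Hand2, and the FOXO-type motif CAAAACA in Igfbp1.
Hand2 at chr8:57320733-57320982: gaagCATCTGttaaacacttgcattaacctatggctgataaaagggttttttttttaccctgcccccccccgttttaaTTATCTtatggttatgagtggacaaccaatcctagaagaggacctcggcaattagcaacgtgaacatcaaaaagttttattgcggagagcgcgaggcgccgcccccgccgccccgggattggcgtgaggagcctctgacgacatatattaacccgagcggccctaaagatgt
Igfbp1 at chr11:7197537-7197786: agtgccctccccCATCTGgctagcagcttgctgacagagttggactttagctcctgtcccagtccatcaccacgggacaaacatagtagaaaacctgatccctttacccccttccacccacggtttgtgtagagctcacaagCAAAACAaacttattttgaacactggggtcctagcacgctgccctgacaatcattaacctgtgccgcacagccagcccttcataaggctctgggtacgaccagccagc
The motifs begin 246 and 172 bases before the start of Hand2 and 238 and 108 bases before that of Igfbp1. Promoter windows were at hand for 7 of the 9 genes, 8 windows in all because Gata2 has 2, and Bmp2 and Zbtb16 have none here. Each window runs from 250 bases before to 50 after a start, and both strands were searched. Among 32851 such windows of all genes, CATCTG is found in 17.15%, AGATAA in 11.18% and CAAAACA in 6.283%. The full palindromic site of the progesterone, glucocorticoid and androgen receptors is in 0.475% of all windows and in 0 of the 8. Its shorter form AGAACA, which lies inside many full sites, is in 18.97%, the forkhead motif GTAAACA in 3.65% and the CEBP motif TTGCGCAA in 0.183%, each in 0 of the 8. A match here is a match of letters and says nothing about binding.

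**Figure D1:**
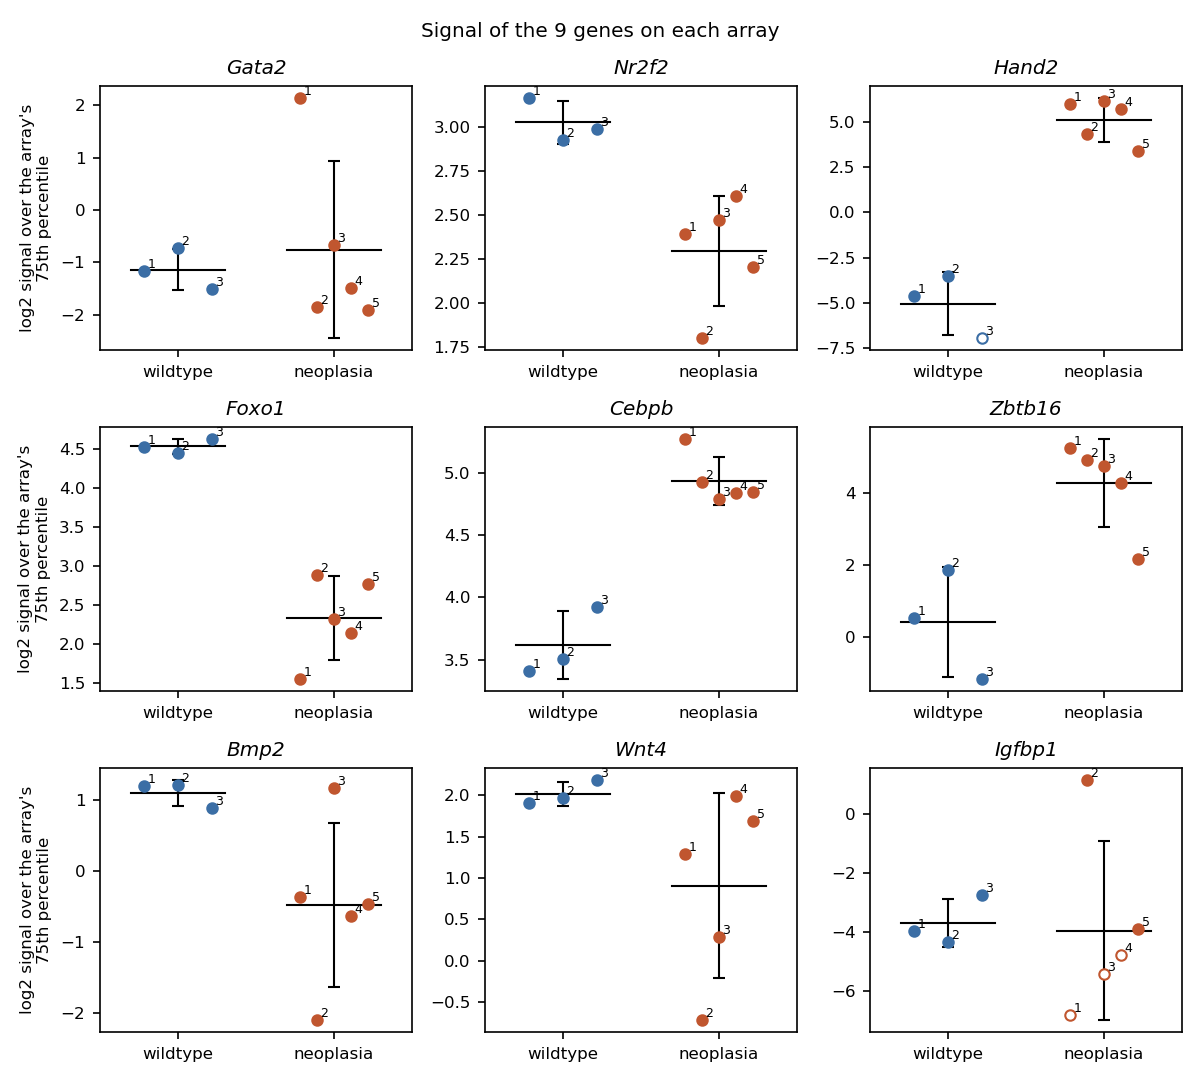
Log2 signal over the array's 75th percentile (y axis) of each of the 9 genes in wildtype and neoplasia; points are arrays with their replicate number, open points were not well above background, and lines with bars are the mean ± SD (n = 3 and n = 5). The groups separate for Hand2, Zbtb16, Cebpb, Foxo1 and Nr2f2 and overlap for Bmp2, Wnt4, Gata2 and Igfbp1.

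Hand2 encodes a basic helix-loop-helix transcription factor that in the uterine stroma lowers fibroblast growth factor output and thereby the response of the epithelium to estrogen. Its signal was -4.62, -3.54 and -6.98 on wildtype 1, 2 and 3, and 6.01, 4.33, 6.20, 5.72 and 3.42 on neoplasia 1 to 5. In intensity units these are 20.8, 44.3 and 3.65 against 3833 to 26729, and the probe was well above background on 2 of 3 wildtype and 5 of 5 neoplasia arrays. Every neoplasia array lay far above every wildtype array, with neoplasia 5 lowest and wildtype 3 at the level of background. The difference was 10.18 ± 0.89 (SE), or 1163-fold (limma adjusted p = 0.000206), with a 95% interval of 8.15 to 12.22. This mean takes in the reading of wildtype 3, which is not a measured level. Without wildtype 3 the difference was 9.22, or 595-fold, and within slide row 2, which sets neoplasia 5 against the wildtype arrays, it was 8.47 (adjusted p = 0.0296, the largest over 19 alternatives, whose smallest was 7.21e-07). Hand2 was called in all 19 of these alternatives, with differences from 7.82 after normexp correction to 10.94 without wildtype 2. The gene's probe was left out by the filter that asks for signal on all 8 arrays.

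The genes that followed Hand2 most closely over the 8 arrays were Spink8, Pgr and Lcn2, with root mean square differences of 0.64, 0.72 and 0.86 after each gene was centred on its mean. Their own differences were 9.61, 9.13 and 8.99. The mean of 8 stromal fibroblast markers was 4.03 to 4.24 in wildtype and 0.56, 1.73, 1.50, 2.72 and 5.11 on neoplasia 1 to 5. Neoplasia 5, with the highest of these means, had the lowest Hand2 signal of the neoplasia arrays and was also the sole neoplasia array in slide row 2. Of these markers 1 of 8 rose (Vim, 1.37), and 7 of 8 did not pass, Dcn at -3.94 and Lum at -6.11 among them, with all 8 well above background on every wildtype array. Of the smooth muscle markers 1 of 5 fell (Cnn1, -4.75), with list means of 2.72 to 4.80 in wildtype and -0.53 to 3.34 in neoplasia. The part of these cells in the result was not tested.

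Genes known to act around the 9 genes were gathered in 8 lists of 133 genes in all, of which 124 were tested. The 9 genes and these lists were chosen with earlier results of these data known. Their counts beside those of all features are therefore a description and not a test. Of the tested genes 27 rose, the targeted gene Pgr among them, and 24 fell, beside 16.8% and 13.5% of all features. Of these calls, 19 of the 27 and 9 of the 24 held in each of the 8 fits that left out 1 array. Of the 51 calls, 38 were kept with spike-in scaling and 35 within slide row 2. With slide row as a block 15 were kept, those of Pgr, Gli1, Fgfr1, Znrf3, Fosl2, Runx2, Prl8a2, Hsd11b1, Ptgs2, Bmp8a, Lif, Sesn3, Mt2, Igfbp3 and Cebpd, and the calls of all other genes of these 8 lists described below as having risen or fallen were lost. Fibroblast growth factors, which HAND2 is known to hold back in the uterus, were listed with their receptors. Of 11 listed genes 10 were tested, 1 rose, 2 fell and 7 did not pass, beside 16.8% and 13.5% of all features, with a median difference of -0.90. That median was -0.21 within slide row 2, -0.54 with normexp correction and -1.71 in the authors' deposited values. The receptor Fgfr1 rose by 3.39 ± 0.29 (SE), or 10.5-fold (limma adjusted p = 0.000175). The ligand Fgf7 fell by 2.46, a call lost without any of wildtype 1 and 2 and neoplasia 1 and 4, and the receptor Fgfr4 by 1.98, a call lost without any of the wildtype arrays and neoplasia 3 and 4. Fgf9, a stromal ligand, differed by -2.94 ± 1.02 (SE), which missed the threshold (adjusted p = 0.0587). Within slide row 2 Fgfr1, Fgf7, Fgfr4 and Fgf9 differed by 3.47, -0.74, -1.11 and -0.30. The count of genes that fell was 0 without wildtype 1, wildtype 2 or neoplasia 4, 1 without neoplasia 1 or 3 and 4 without neoplasia 5.

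Zbtb16 encodes the zinc finger repressor PLZF, a direct receptor target in decidual stroma and also a gene that glucocorticoids raise. Its signal was 0.51, 1.87 and -1.20 on wildtype 1 to 3 and 5.26, 4.91, 4.76, 4.29 and 2.17 on neoplasia 1 to 5. The groups did not overlap, but neoplasia 5 lay only 0.30 above wildtype 2, while the other neoplasia arrays lay close together. The difference was 3.88 ± 0.84 (SE), or 14.8-fold (limma adjusted p = 0.0129). The call was lost without wildtype 1 (difference 3.94, adjusted p = 0.0505), with slide row as a block (1.77, adjusted p = 0.333) and within slide row 2 (adjusted p = 0.361); over 20 alternatives adjusted p ran from 0.00178 to 0.361. The nearest genes in pattern were Glul, Dock3 and Sult1a1, at 0.55, 0.57 and 0.59. Zbtb16 also marks natural killer T cells. Of 6 markers of T and natural killer T cells 4 were tested and 2 rose (Cd3e, 1.01, and Cd4, 1.19), with list means of -2.51 to -1.81 in wildtype and -1.87, 0.11, -0.76, -3.13 and -1.52 on neoplasia 1 to 5, and their part in the result was not tested.

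Cebpb encodes a basic leucine zipper factor that progesterone and cyclic AMP raise in stroma and that the luteinizing hormone surge raises in granulosa cells. It stood at 3.41, 3.51 and 3.93 on wildtype 1 to 3 and at 5.27, 4.92, 4.79, 4.83 and 4.85 on neoplasia 1 to 5. All neoplasia arrays were above all wildtype arrays, and they were closely alike, with neoplasia 1 a little apart. Only 7.26% of features had a smaller SD over the neoplasia arrays than Cebpb (0.19). The difference was 1.32 ± 0.20 (SE), or 2.49-fold (limma adjusted p = 0.00344). It was lost with spike-in scaling (0.71, adjusted p = 0.415), with slide row as a block (1.23, adjusted p = 0.0689) and within slide row 2 (adjusted p = 0.0524); over 20 alternatives adjusted p ran from 0.000323 to 0.415. Its nearest genes were Ier2, an immediate early gene, at 0.10, and Gm11595 and Nars, each at 0.14. CEBPB is also made in macrophages, and macrophage markers rose, 4 of 4 tested, with list means of 1.51 to 1.95 in wildtype and 3.63 to 4.50 in neoplasia. The largest of these rises was that of Cd14 (4.35), and their part in the result was not tested.

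Foxo1 encodes a forkhead factor that insulin and growth factor signals keep out of the nucleus, that partners the receptor in decidual cells and that is abundant in granulosa cells. Its brighter probe read 4.53, 4.44 and 4.62 on wildtype 1 to 3 and 1.55, 2.89, 2.32, 2.14 and 2.77 on neoplasia 1 to 5. The second probe read 3.74, 3.57 and 3.95 and then 0.59, 1.73, 1.51, 1.15 and 2.04. Both probes put all neoplasia arrays below all wildtype arrays, with neoplasia 1 lowest on both. The differences were -2.20 ± 0.31 (SE), or 4.58-fold lower (limma adjusted p = 0.00231), and -2.35 ± 0.33 (adjusted p = 0.00207 in the fit over 34194 probes, of which 15.6% were called higher and 13.5% lower, beside 3 and 3 of the 10 probes of these genes). The call was lost only with slide row as a block (-1.76, adjusted p = 0.0740), the largest of 20 alternatives, the smallest being 0.000103. The genes closest in pattern were 2810410L24Rik, Sybu and Abca9, at 0.21, 0.22 and 0.23. Of 6 granulosa markers 5 fell, list means being 1.92 to 2.53 in wildtype and -4.74 to -3.28 in neoplasia, and Cyp19a1, Fshr and Amh were not well above background on any neoplasia array. The part of granulosa cells in the fall of Foxo1 was not tested.

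Genes that FOXO factors or glucocorticoid-type receptors are known to raise are given here beside Foxo1 and Zbtb16. Of 18 tested, 8 rose, 2 fell and 8 did not pass, while 16.8% of all features were called higher and 13.5% lower. The median difference of the list was 0.81. Pdk4, a kinase that restrains pyruvate oxidation, rose by 2.37 ± 0.46 (SE), and Gadd45b, a stress gene, by 2.31 ± 0.36 (limma adjusted p = 0.00827 and 0.00351). Sesn3, a FOXO target that restrains growth signals, fell by 3.60 ± 0.35 (adjusted p = 0.00035). Trib1, Mt2 and Tsc22d3 rose by 2.30, 2.06 and 1.35, and these and the 3 genes before them kept their calls in every fit without 1 array. Klf15, Dusp1 and Per1 rose by 2.12, 1.32 and 0.71 and Sesn1 fell by 1.12, calls that were each lost without wildtype 1 or 2 and, but for Dusp1, without wildtype 3. Dusp1 also lost its call without neoplasia 2, 3, 4 or 5, and Per1 without neoplasia 1, 3 or 4. Fkbp5, a gene the receptor and the glucocorticoid receptor both raise, differed by 0.91 ± 0.43 (SE), which missed the threshold (adjusted p = 0.136). With spike-in scaling 2 of the 18 rose, the calls of Gadd45b, Mt2, Tsc22d3, Klf15, Dusp1 and Per1 being lost, and the median was 0.21. With slide row as a block 1 rose (Mt2), and Pdk4, Gadd45b and Trib1 then differed by 1.74, 2.35 and 1.73 and did not pass. In the authors' deposited values 6 rose and the median was 0.34. The count that rose was 5 without wildtype 1 or 2 and 6 to 8 without any other array.

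Nr2f2 encodes COUP-TFII, the orphan receptor that hedgehog signals raise in the stroma. It read 3.16, 2.92 and 2.99 on wildtype 1 to 3 and 2.39, 1.80, 2.47, 2.61 and 2.20 on neoplasia 1 to 5. The neoplasia arrays were all lower, neoplasia 4 coming within 0.32 of the wildtype range. The difference was -0.73 ± 0.22 (SE), or 1.66-fold lower (limma adjusted p = 0.0396), and the call was lost in 10 of 20 alternatives, over which adjusted p ran from 0.00307 to 0.218. Among these were each of the 3 fits without a wildtype array (adjusted p = 0.151, 0.101 and 0.0986), those without neoplasia 1 or neoplasia 3 (adjusted p = 0.0537 and 0.0571) and the fit with the replicate number as a block (-0.80, adjusted p = 0.0900). The difference itself stayed between -1.33 and -0.61 over the 20 alternatives. Primpol, Marcksl1 and Gm3414 had the nearest patterns, at 0.12, 0.15 and 0.15. Endothelial cells of veins also use NR2F2, and of 6 endothelial markers 1 rose (Cdh5, 1.54) and 1 fell (Ephb4, -1.82), with list means of 0.24 to 0.54 in wildtype and -0.37 to 1.40 in neoplasia.

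Of the 10 genes of the hedgehog relay that leads to NR2F2 in the uterus, 5 fell, 1 rose and 4 did not pass. Among all features 13.5% were called lower and 16.8% higher. The median difference of the relay genes was -0.94, and it was -0.40 within slide row 2 and -1.55 with spike-in scaling. The gene that rose was Pgr, read by its brighter probe (9.13 ± 0.74 SE, limma adjusted p = 0.000136). Pgr is the gene targeted in these animals, so its call is not separate from the design. Its other probe differed by -3.72 and was not well above background on any neoplasia array. Set against the lowest signal that counts as well above background on those arrays, its fall was at least 2.88-fold. Gli1, a target and effector of the pathway, fell by 5.52 ± 0.71 (SE), or 45.8-fold (adjusted p = 0.00148), with signal well above background on 3 of 3 wildtype and 3 of 5 neoplasia arrays, and the ligand Ihh by 3.80 ± 0.88 (SE; adjusted p = 0.0161), a call lost without wildtype 1 or wildtype 3. The receptor Ptch1 and the effector Gli2 fell by 1.04 and 3.72, Gli2 being well above background on 3 of 3 wildtype and 1 of 5 neoplasia arrays, and each of these calls was lost without any of the 3 wildtype arrays. Ptch1 also lost its call without neoplasia 1, 3 or 4, and Gli2 without neoplasia 1, 2, 3 or 4. Within slide row 2 Gli1, Ihh, Ptch1 and Gli2 differed by -3.42, -4.77, -1.65 and -0.14. The count that fell was 1, 2 and 1 without wildtype 1, 2 and 3, 3 without neoplasia 3 or 4, and 4 or 5 without the others.

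**Figure D2:**
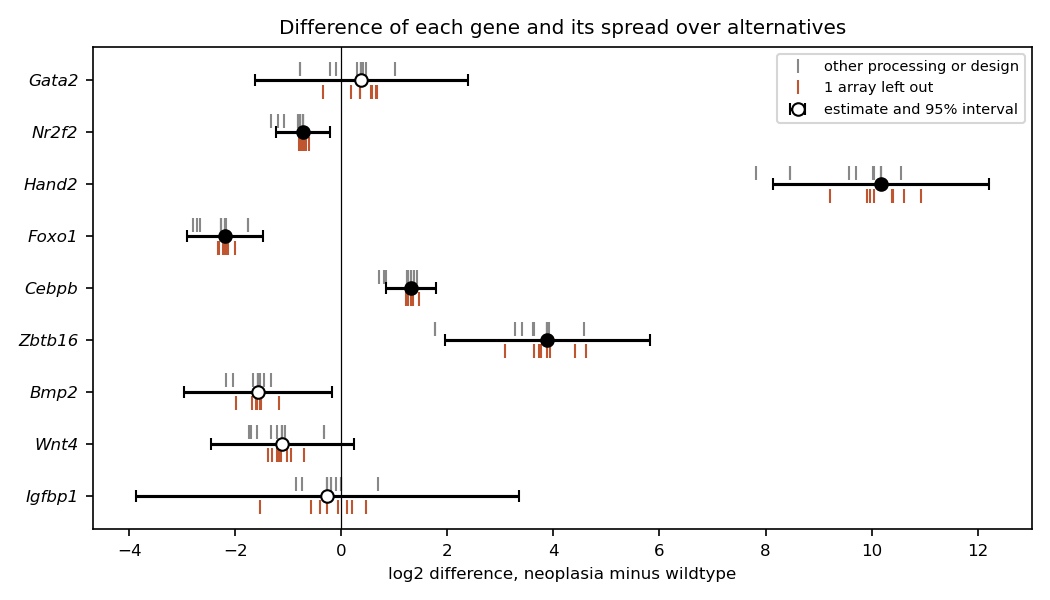
Log2 difference, neoplasia minus wildtype (x axis), for each of the 9 genes; points with bars are the estimate and its 95% interval, filled where adjusted p was under 0.05, grey ticks are other processing or designs and orange ticks leave out 1 array. Hand2 stays at 7.82 or above, whereas the ticks of Gata2 and Igfbp1 fall on both sides of 0.

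Bmp2 encodes a bone morphogenetic protein that stromal cells need in order to become decidua. Its signal was 1.20, 1.21 and 0.89 on wildtype 1 to 3 and -0.37, -2.11, 1.17, -0.63 and -0.46 on neoplasia 1 to 5. All neoplasia arrays but neoplasia 3 were below the wildtype range, and neoplasia 3 was within it. The difference was -1.58 ± 0.61 (SE) with a 95% interval of -2.98 to -0.18, and it did not pass (limma adjusted p = 0.0808). It passed without neoplasia 3 (-1.99, adjusted p = 0.0204), with spike-in scaling (-2.18), in the authors' deposited values (-2.05) and with array weights (-1.45). Within slide row 2, where neoplasia 5 is the only neoplasia array, the difference was -1.56. Over 20 alternatives adjusted p ran from 0.0180 to 0.403. Galnt15, Tmem47 and Klhl38 had the nearest patterns, at 0.42, 0.46 and 0.46.

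Around Bmp2, receptors, SMAD proteins, inhibitors and targets gave 1 gene that rose, 2 that fell and 14 that did not pass, of 17. Among all features 16.8% were called higher and 13.5% lower. The median difference of the list was -0.20, and it was 0.16 within slide row 2. The receptor Bmpr1b fell by 5.83 ± 1.06 (SE; limma adjusted p = 0.00657) and was well above background on 3 of 3 wildtype and 2 of 5 neoplasia arrays. Its call was lost with slide row as a block, at a difference of -4.54. The receptor Acvr1 fell by 1.30, a call lost without any of wildtype 1, 2 and 3 or neoplasia 1, 2, 3 and 4. Id1, a target of this signal, rose by 1.25, a call lost without any of the 3 wildtype arrays. Without any of the wildtype arrays 0 genes rose and 1 fell, without neoplasia 2 the counts were 3 and 1, without neoplasia 3 they were 1 and 1, without neoplasia 4 they were 2 and 1, and without neoplasia 5 they were 2 and 4.

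Wnt4 encodes a Wnt ligand that acts after BMP2 in decidual cells and that the ovary needs in its development. It read 1.91, 1.97 and 2.18 on wildtype 1 to 3 and 1.28, -0.72, 0.29, 1.997 and 1.69 on neoplasia 1 to 5. Neoplasia 4 lay within the wildtype range, neoplasia 5 was 0.22 below it and neoplasia 1 was 0.62 below it, and neoplasia 2 and 3 were 2.63 and 1.62 below it. The difference was -1.11 ± 0.59 (SE), its 95% interval -2.46 to 0.23, and it did not pass (limma adjusted p = 0.175). Of 20 alternatives the one with array weights called it (adjusted p = 0.0310, the lowest; the highest was 0.857). Slc38a1, Dip2c and Syn1 had the nearest patterns, at 0.24, 0.38 and 0.40.

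Both ligands were lowest on neoplasia 2, and their order over the other neoplasia arrays differed, with Bmp2 highest on neoplasia 3 and Wnt4 highest on neoplasia 4. Among 12 genes of Wnt reception around Wnt4, 1 rose and 3 fell, beside 16.8% and 13.5% of all features. The other 8 did not pass, and the median difference of the list was -0.07. Those that fell were Rspo3, a secreted enhancer of Wnt signals (by 4.49 ± 1.13 SE; limma adjusted p = 0.0217), and Rnf43 and Znrf3, the receptor-removing enzymes that R-spondins block (by 3.92 and 1.39). The call of Rspo3 was lost without wildtype 1 or wildtype 2 and that of Znrf3 without wildtype 1. With slide row as a block Rspo3 and Rnf43 were at -1.03 and -2.34 and neither passed. The co-receptor Lrp5 rose by 0.81, a call lost without any of the wildtype arrays and neoplasia 3. Without neoplasia 5 there were 4 genes that rose, and without wildtype 1 or 2 there were 1 and 2 that fell.

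Gata2 encodes a zinc finger factor that works with the receptor in the uterus and also serves mast cells and endothelium. Its signal was -1.17, -0.72 and -1.51 on wildtype 1 to 3 and 2.13, -1.84, -0.67, -1.50 and -1.91 on neoplasia 1 to 5. Neoplasia 1 alone stood high, and the other neoplasia arrays lay in or near the wildtype range. The difference was 0.38 ± 0.88 (SE), its 95% interval -1.63 to 2.39, and it did not pass (limma adjusted p = 0.764). Without neoplasia 1 it was -0.35. The SD over the neoplasia arrays, 1.69, was larger than that of 95.7% of features. Robo3, Bex1 and Pcdh9 had the nearest patterns, at 0.43, 0.46 and 0.46. Of 5 tested mast and erythroid markers 2 rose (the globins Hba-a1 and Hbb-bt) and 1 fell (Cpa3, a mast cell protease that was not well above background on any neoplasia array), with list means of 0.30 to 1.46 in wildtype and 1.56, 1.23, 2.23, 2.25 and 2.75 on neoplasia 1 to 5. The globins are part of these means, and the part of mast and erythroid cells in the value of neoplasia 1 was not tested.

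Igfbp1 encodes an insulin-like growth factor binding protein that decidual cells and liver secrete. It read -3.99, -4.33 and -2.77 on wildtype 1 to 3, and -6.84, 1.16, -5.43, -4.79 and -3.89 on neoplasia 1 to 5. Neoplasia 2 alone was high, at an intensity of 961 against 2.70 to 68.0 on all other arrays, and the probe was not well above background on neoplasia 1, 3 and 4. The difference was -0.26 ± 1.58 (SE), its 95% interval -3.88 to 3.36, and it did not pass (limma adjusted p = 0.912). Without neoplasia 2 it was -1.54 (adjusted p = 0.135, the lowest of 19 alternatives; the highest was 0.998). Its SD over the neoplasia arrays, 3.06, was larger than that of 99.7% of features.

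The high array for Igfbp1 was also the high array for liver markers. Of 6 liver markers 5 were tested and 4 rose, and their mean was -5.84 to -5.35 in wildtype and 0.31, 4.95, 2.48, 0.53 and 1.32 on neoplasia 1 to 5. Alb, Fgb and Apoh were not well above background on any wildtype array and passed the filter on dim probes through neoplasia arrays alone. The wildtype means therefore rest in part on readings that are not measured levels. The genes nearest to Igfbp1 in pattern were Apof, Foxa3 and Paqr9, at 0.65, 0.83 and 0.90, and the first of these is an apolipoprotein gene of liver. The part of liver-type transcripts in the value of neoplasia 2 was not tested. Of the uterus markers, Hoxa10 and Hoxa11 failed the filter on dim probes, and of the 3 others 0 were called by limma and 2 had an unadjusted p under 0.05, with list means of -1.75 to -1.13 in wildtype and -3.66 to -1.16 in neoplasia. Of 6 epithelial markers 2 rose and 2 fell, with list means of -0.18 to 2.11 in wildtype and 0.38 to 2.23 in neoplasia. Of 5 theca and luteal markers 4 fell, with list means of 4.20 to 5.21 and of -0.034 to 1.02.

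**Figure D3:**
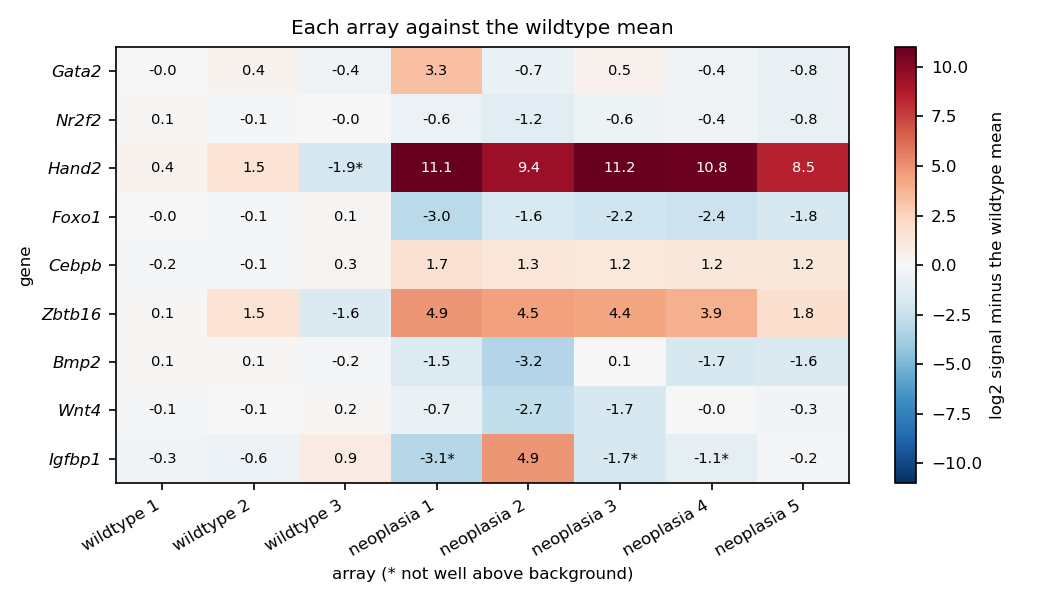
Log2 signal of each of the 9 genes (rows) on each array (columns) minus the gene's wildtype mean, with colour from blue (below) to red (above) and an asterisk where the probe was not well above background. Hand2 is red on all 5 neoplasia arrays, Gata2 on neoplasia 1 and Igfbp1 on neoplasia 2.

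The 9 genes varied more among the neoplasia arrays than among the wildtype arrays in 6 cases, by 2.54-fold in SD for Nr2f2 to 7.69-fold for Wnt4, and less in the cases of Hand2, Cebpb and Zbtb16. Over all features the median SD was 0.20 in wildtype and 0.47 in neoplasia. The neoplasia arrays did not keep a shared order: neoplasia 1 was highest for Gata2, Cebpb and Zbtb16 and lowest for Foxo1. Neoplasia 5 was lowest for Hand2, Zbtb16 and Gata2.

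Partner factors of decidual transcription gave 3 genes that rose and 4 that fell, beside 16.8% and 13.5% of all features. Of 19 tested among 21, 12 did not pass, and the median difference was -0.22. Esr1, the estrogen receptor alpha gene, fell by 3.38 ± 0.59 (SE; limma adjusted p = 0.0053), a call lost with slide row as a block and within row 2, where the difference was -1.79, and the AP-1 subunit gene Fosl2 by 2.24 ± 0.29 (adjusted p = 0.00154). Stat5a, a prolactin signal transducer, fell by 2.27, a call lost without any of wildtype 1, 2 and 3 or neoplasia 3, 4 and 5. Runx2 also fell, by 2.20. Klf13 rose by 1.92. Klf9 and Stat3 rose by 0.97 and 0.75, calls lost without any of the wildtype arrays or neoplasia 3, and for Stat3 also without neoplasia 2 or 4. Nr3c1, the glucocorticoid receptor gene, differed by -0.35 ± 0.32 (SE), short of the threshold (adjusted p = 0.423). The count that rose was 1 without any of the wildtype arrays or neoplasia 3, 2 without neoplasia 2 or 4, and 4 without neoplasia 1 or 5, while 6 fell without neoplasia 1.

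Among products and signals of decidual cells 8 rose and 3 fell, beside 16.8% and 13.5% of all features. Of 16 tested among 18, 5 did not pass. The median difference of the list was 1.38, or 1.29 with genes that have only a bound set at it. That median was 0.78 with spike-in scaling, 0.33 in the authors' deposited values and 2.42 within slide row 2. For 3 of those that rose the probe was not well above background on any wildtype array. These 3 passed the filter on dim probes through neoplasia arrays alone. Their p-values rest on wildtype readings that are not measured levels. Prl8a2, a prolactin-family hormone that decidual cells secrete, rose at least 800-fold, Ptgs2, the inducible prostaglandin synthase, at least 13.5-fold and the cytokine gene Lif at least 3.44-fold (limma adjusted p = 0.00463, 0.00084 and 0.00424). The signal of Prl8a2 was 0.24, 0.52, 5.13, 7.82 and 7.50 on neoplasia 1 to 5, so that neoplasia 1 and 2 lay far below the other 3 arrays. Such a bound sets the neoplasia mean against the lowest signal that counts as well above background on the wildtype arrays. Hsd11b1, which makes active glucocorticoid, rose by 8.51 ± 0.65 (SE), or 364-fold (adjusted p = 0.000103). Bmp8a, Hbegf, Lifr and Adamts1 rose by 4.15, 3.76, 3.08 and 1.95. Those that fell were Gja1, a connexin gene of decidual and granulosa cells, Alpl and Cited2, by 3.22, 1.67 and 1.12. Of the 8 that rose, 7 kept their calls in every fit without 1 array, and Adamts1 lost it without any of the wildtype arrays or neoplasia 1, 3 and 4. Alpl lost its call without wildtype 1 and Cited2 without any of the wildtype arrays, so that 1 gene fell without wildtype 1. With slide row as a block Hbegf, Lifr and Gja1 were at 2.93, 2.37 and -1.71 and did not pass, and Lif lost its call within slide row 2.

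**Figure D4:**
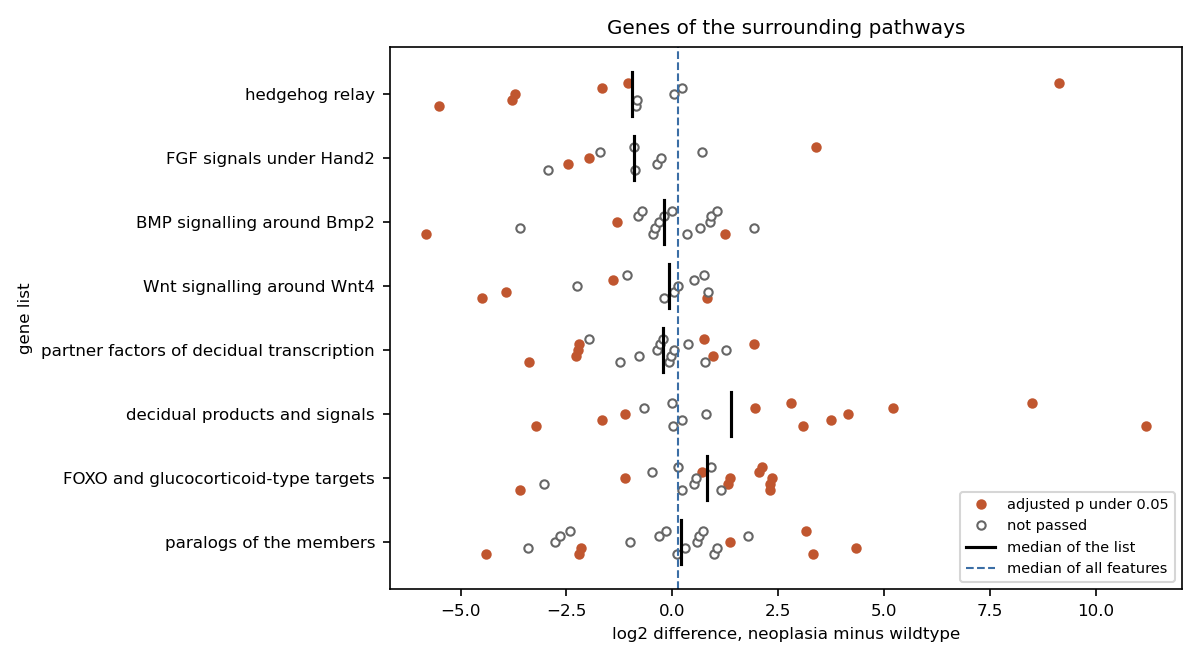
Log2 difference, neoplasia minus wildtype (x axis), of every tested gene of 8 lists of surrounding genes (rows); filled points had an adjusted p under 0.05, black bars are list medians and the dashed line is the median of all features (0.13). The decidual products and the FOXO and glucocorticoid-type targets have medians of 1.38 and 0.81 and the hedgehog relay has one of -0.94. Within slide row 2 these medians were 2.42, 0.85 and -0.40.

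Relatives of the 9 genes by sequence family were listed as well. Of 26 listed paralogs 22 were tested, 4 rose, 3 fell and 15 did not pass, beside 16.8% and 13.5% of all features, with a median difference of 0.21 that was -0.39 with spike-in scaling and -0.17 in the authors' deposited values. In the CEBP family Cebpd rose by 3.32 ± 0.33 (SE; limma adjusted p = 0.000434) and Cebpg by 1.36, a call lost with slide row as a block or with scaling to the spike-ins, while Cebpa, at 0.99, missed the threshold (adjusted p = 0.0653). In the GATA family Gata3 rose by 3.17 ± 0.58 (SE; adjusted p = 0.00673), a call lost with slide row as a block and within row 2, where the difference was 2.20, and Gata4 fell by 2.15, a call lost without any of wildtype 1, 2 and 3 and neoplasia 1 and 3, and Gata6 differed by 0.64 and did not pass. Among the COUP-TF relatives Nr2f1 fell by 2.21, a call lost without wildtype 1 or wildtype 2, and Nr2f6 differed by 0.58 and did not pass.

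Among relatives of Igfbp1, Igfbp3 rose by 4.35 ± 0.41 (SE), or 20.3-fold (limma adjusted p = 0.000317), and was called in all 20 alternatives. Igfbp2, Igfbp5 and Igfbp6 differed by 1.79, -1.01 and -2.64 and did not pass. Among Wnt ligands Wnt5a fell by 4.41 ± 0.75 (SE), or 21.2-fold (adjusted p = 0.00498), a call lost with slide row as a block, at a difference of -2.14, and Wnt5b, Wnt6 and Wnt11 differed by -0.32, 1.06 and 0.30 and did not pass. Bmp4, Bmp6 and Bmp7 differed by -2.76, -3.42 and -0.14 and did not pass, and neither did Foxo3, Foxo4 and Foxo6 at 0.74, 0.12 and -2.42. Bmp4, Bmp6, Foxo6 and Igfbp6 passed as lower without neoplasia 5, as did Igfbp5, and Foxo3, Cebpa and Nr2f6 passed as higher without it, so that 7 rose and 8 fell. Without wildtype 1 or 2 only 1 of the paralogs fell, which was Wnt5a.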

How the data were processed

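The submitters' arrays are Agilent 1-colour arrays. Per the file headers, the scanner images were read with Agilent Feature Extraction 11.0.1.1, which gave a processed intensity and a background flag for each spot. Partek is named in the submitters' processing notes, with no role stated. The authors' deposited table of log2 values has 37932 rows, and each equals, within 0.001, log2 of the mean processed intensity of all spots that share an accession, with no centring and no scaling between arrays. Its row of Foxo1 therefore averages 2 probes.

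For the values given here, log2 intensity minus the array's 75th percentile was used, outlier spots were left out and replicate spots were averaged per probe. The test took probes that rose well above background on 3 or more arrays and used limma 3.58.1 in R 4.3.3, with the probe of highest mean standing for a gene, two-sided and adjusted by Benjamini-Hochberg, with a threshold of 0.05. The scripts were tested on simulated data. Of 55681 probes, 47.7% were given a gene symbol by a match to RefSeq and Ensembl identifiers. The precision is limited by the number of arrays, 3 and 5. The genes and lists were chosen with earlier results of these data known. Genes are named by rule: the 9 genes, up to 3 called genes of each list by size of difference, all tested paralogs and the 3 nearest patterns of each of the 9 genes. Other genes named, and the chromosome neighbours, were chosen after their values were seen. Alternatives covered background correction, scaling, filters, the probe for a gene, variance models, slide row and each array left out. Wildtype and neoplasia share replicate numbers 1 to 3. Deviations of same-numbered arrays from their group means correlated at -0.06, -0.03 and 0.0065. With only 3 shared numbers this cannot exclude a pairing, and the main fit used none. Normexp was run on median foreground signals. The values of 1 listed gene are not reported here.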

Additional observations from a re-analysis of the deposited data

Results flagged for a closer look

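In 3 of 83 genes checked, 1 of the 5 neoplasia arrays stood apart from the other 4 by more of the range than Dixon's critical value of 0.71 allows, and chance alone gives about 5% of such groups. Cebpb was at 5.27 on neoplasia 1, against 4.92 on the next array. The BMP receptor gene Acvr1 was at 3.56 on neoplasia 5, with the next at 2.06. The hedgehog effector gene Gli2 was at -2.35 on neoplasia 5, with the next at -6.53.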

How the results depend on the processing

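All counts here are of limma calls. The authors' values differ from the main ones in scaling, in averaging all spots of an accession and in the 23780 features tested, and normexp correction also took median foreground signals. The features called higher and lower were 4232 and 3402; 6369 were higher with normexp correction, 749 with spike-in scaling, 2636 within slide row 2, 1498 higher and 5916 lower in the authors' deposited values, 8148 and 5653 with array weights, 736 and 808 with slide row as a block, and 1925 were lower among probes above background on all 8 arrays. Without 1 array the features called higher ranged from 1295 to 5652 and those lower from 1532 to 4304. With the replicate number as a block 2009 features were higher, 3 of the 9 genes were higher and 1 was lower, the call of Nr2f2 being lost. Of the 9 genes, 1 was higher with slide row as a block or within row 2, and lower calls numbered 0 with the row block, 1 with no filter on dim probes, 4 with array weights and 1 to 2 without 1 array. Of their 10 probes, 1 was higher with the row block or within row 2, and 0 were lower with the row block and 5 with array weights. Of the pathway genes, 27 higher and 24 lower, 14 were higher with spike-in scaling, 46 higher and 42 lower with array weights, 11 and 5 with the row block and 40 lower in the authors' values, and 9 to 34 were lower without 1 array. Hand2, Foxo1, Cebpb, Zbtb16, Nr2f2, Bmp2 and Wnt4 kept their direction in every alternative that gave a value. Signs turned as follows. Gata2 was at -0.22 with spike-in scaling, -0.094 in the authors' values, -0.78 with the row block and within row 2, and -0.35 to 0.67 without 1 array. Igfbp1 was at 0.69 with normexp correction and -1.54 to 0.46 without 1 array. With the row block and within row 2 alike, Acvr1 was at 0.015, Bmp4 0.16, Bmp7 0.039, Bmp6 0.067, Wnt6 -0.69, Nr2f6 -0.063, Foxo4 -0.68, Foxo6 0.062, Igfbp5 0.78, Igfbp6 0.38, Fkbp5 -0.34 and Nr3c1 0.54. With spike-in scaling Wnt11 was at -0.30, Nr2f6 -0.023, Foxo4 -0.48 and Sap30 -0.064, and in the authors' values Wnt11 was at -0.17 and Foxo4 -0.28. With array weights Wnt5b was at 0.072 and Wnt11 at -0.10. Without 1 array Bmp7 ranged from -0.51 to 0.11, Wnt11 from -0.33 to 0.81 and Foxo4 from -0.14 to 0.32. The row fits rest on neoplasia 5 against 3 wildtype arrays; the cause of the other changes was not tested. Probes that are not well above background in a group, such as Igfbp1 on neoplasia 1, 3 and 4, have no measured level there.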

Other observations

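The genes next to the 9 genes on their chromosomes, in RefSeq gene order, were read from the same fit after the values of the 9 genes were seen. Of 18 nearest tested neighbours, 1 on each side, 5 were higher and 2 lower, beside 16.8% and 13.5% of all features. Only 4 of the 18 are directly adjacent. Igfbp3, directly beside Igfbp1, rose by 4.35 and was above every wildtype array on all 5 neoplasia arrays, while Igfbp1 was high on neoplasia 2 alone. The nearest tested genes on the 2 sides of Hand2 lie 7 and 6 genes away. The difference was 1.05 ± 0.30 (SE; limma adjusted p = 0.0312) for Fbxo8, a call lost in 9 of 20 alternatives, among them each fit without 1 wildtype array, slide row as a block and scaling to the spike-ins, and 0.54 ± 0.25 (adjusted p = 0.132) for Sap30, against 10.18 for Hand2. Directly beside Zbtb16, Nnmt, an enzyme of nicotinamide methylation, differed by 1.72 ± 0.66 (SE), which missed the threshold (adjusted p = 0.0805). Usp28, the nearest tested gene on the other side of Zbtb16 and 6 genes away, fell by 0.99 ± 0.19 (SE; limma adjusted p = 0.00861), a call lost with slide row or with the replicate number as a block. Directly beside Gata2, Dnajb8 fell by 2.17 ± 0.48 (SE; adjusted p = 0.0141), a call lost without wildtype 1 or 2 and with slide row as a block.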
